A study of Mus musculus with 6 samples.

Results

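Serpins are a family of proteins that share one fold and mostly inhibit serine proteases. The family was taken from the deposited table by gene name, as every row whose name reads Serpin, a clade letter from a to i, a number and at most 1 further letter. This found 64 of the 55401 genes in the table, and 63 of them are described. Of these, clade A held 25, clade B 28, clades E, F and I 2 each, and clades C, D, G and H 1 each. RNA sequencing had been carried out on mesenchymal stromal cells, a plastic-adherent culture grown from mouse femoral bone marrow of strain C57/B6J. The 2 groups were wild-type cultures (WT) and cultures lacking Nlrp3, labelled NLRP3-/-, the sensor of an inflammasome. Both groups had received lipopolysaccharide (LPS), a bacterial outer membrane component sensed by TLR4, at 3 µg/mL for 24 h. Each group had 3 libraries. No library without LPS was analysed here, so the comparison is between genotypes under LPS and does not measure a response to LPS. The labels give no age of the mice and do not say whether replicates were separate mice or separate dishes. The p-values therefore reflect variation among these 6 libraries alone, part of which may be technical, and genotype cannot be told apart from a difference between cultures.

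An inhibitory serpin carries an exposed reactive centre loop that a protease takes for a substrate. Cleavage of the loop inserts it into the body of the serpin, which distorts the protease and traps it in a covalent complex, so that each serpin molecule is used once. Clade A serpins are mostly secreted, and the liver is their best known source. Clade B serpins mostly lack a signal peptide and guard the cytosol against granule and lysosomal proteases. Clades E, F and G hold regulators of plasmin formation, of vessel growth and of complement. Serpinh1 of clade H inhibits no protease and serves as a collagen chaperone in the endoplasmic reticulum. In rodents, clades A and B have expanded into tandem arrays of closely related genes.

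The libraries held between 53157580 and 66298470 estimated counts. Nlrp3 had 444 to 730 estimated counts in WT libraries and 0 in each knockout library, as the labels imply. Expression is given in FPKM (fragments scaled to transcript length and sequencing depth), which allows levels of different genes to be compared per length. All 19 macrophage markers that were tested rose in the knockout, with summed levels of 756 to 860 FPKM in WT and 1748 to 1996 in knockout libraries, and none of the 21 listed markers was at 0. Of 16 tested stromal markers 4 were higher and 12 lower, with sums of 3442 to 3798 and 2460 to 2689. Of 5 tested granulocyte markers 3 were higher (Mmp8, Csf3r and S100a8) and 2 lower (Mmp9 and Camp), and 4 of the 13 listed were at 0. Their sum, 145 to 159 FPKM in WT and 25.4 to 29.2 in knockout libraries, followed Mmp9, which stood at 139 and 9.15 FPKM. The part of these shifts in the serpin results below was not tested. Aif1 (macrophage), Nt5e (stromal) and S100a8 reached 1 FPKM in knockout libraries only, so that they had to differ in level to be tested. Hepatocyte markers summed to at most 0.42 FPKM in any library, with Ahsg, Fga, Fgb and Fgg at 0 throughout, and 9 of 17 lymphoid markers, Cd3e among them, were at 0 throughout. The 1 tested lymphoid marker, Trac, was higher (0.820 to 3.38 FPKM, adjusted p = 0.011, limma), and the lymphoid list summed to 0.68 to 1.52 FPKM in WT and 2.52 to 4.48 in knockout libraries. In bulk RNA, fewer cells of a type and less RNA per cell cannot be told apart.

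Most of the family stayed below the expression filter, as did most genes of the table. The filter asked for 3 or more of the 6 libraries at 1 FPKM or above. Of the 63 genes, 23 were listed at 0 in all 6 libraries, 25 had a value above 0 but stayed below the filter, and 15 passed it and were tested. Of all 55401 genes, 28679 were at 0, 14586 lay above 0 but below the filter, and 12136 were tested. The 6 alpha-1-antitrypsin genes of the mouse (Serpina1a to Serpina1f), most of which the liver expresses strongly, reached at most 0.11 FPKM. Antithrombin (Serpinc1) and heparin cofactor II (Serpind1), plasma inhibitors of thrombin, reached at most 0.03 and 0.07. Serpina12 (vaspin) and Serpina16 reached at most 0.18 and 0.14. The neuronal serpin gene Serpini1 lay between 0.05 and 0.12 FPKM in every library.

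Serpin RNA was unevenly spread over these genes. Serpinh1 and Serpinf1 ranked 51 and 93 by mean FPKM among the 12136 tested genes, and Serpinb6a and Serpina3g ranked 1099 and 1937. The summed FPKM of the 63 genes was 1743, 1626 and 1091 in WT replicates 1, 2 and 3 and 961, 1389 and 1041 in knockout replicates 1, 2 and 3. These sums overlapped between the genotypes and followed Serpinh1, which made up between 40.4% and 66.3% of them. Without Serpinh1 the sums were 642.5, 554.9 and 618.3 in WT and 572.4, 468.0 and 592.5 in knockout libraries, which overlapped as well.

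**Figure D1:**
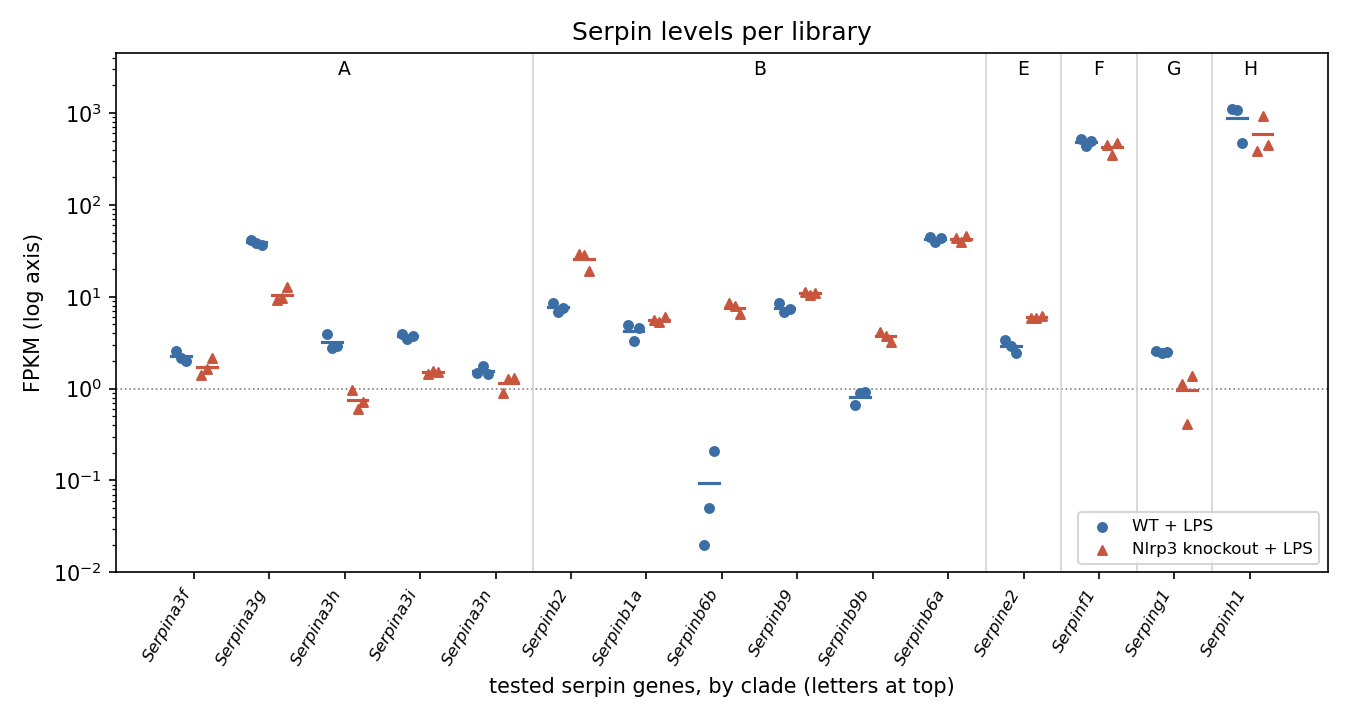
FPKM (log axis) of 15 tested serpin genes in each of the 3 WT and 3 knockout libraries, ordered by clade, with short bars at the group means and a dotted line at 1 FPKM. The genes span levels from below 0.1 (Serpinb6b in WT) to about 1101 FPKM (Serpinh1). The knockout points of 6 genes, Serpinb6b, Serpinb9b and Serpine2 among them, all lie above the WT points. Those of 5 genes, Serpina3g among them, all lie below, and those of 4 overlap. Of all tested genes, 36.7% do not overlap between genotypes.

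Of the 15 tested serpins, 5 were called higher in the knockout cultures and 4 lower, at an adjusted p of 0.05 (limma on log2(FPKM + 1), Benjamini-Hochberg adjustment over all 12136 tested genes). The called share was 60.0% of the 15 tested serpins, against 19.6% of all tested genes (10.4% higher and 9.2% lower). Serpina3h, Serpinb6b and Serpinb9b passed the filter through the libraries of 1 genotype only, so that they had to differ in level. Of the other 12 genes 3 were higher, 3 lower and 6 not called. The values of the genotypes did not overlap for 11 of the 15 genes, against 36.7% of all tested genes. Clade B had 4 genes higher and 0 lower of 6 tested, clade A 3 lower and 0 higher of 5, Serpine2 of clade E was higher and Serping1 of clade G lower. The median log2 fold change was 0.93 for the tested genes of clade B and -0.91 for those of clade A, against 0.01 for all tested genes. Without the 3 genes that passed through 1 genotype, clade B had 2 higher of 4 (median 0.42) and clade A 2 lower of 4 (median -0.59). No test was made of a clade as a whole. Log2 fold changes give the knockout minus the WT mean of log2(FPKM + 1), with the standard error (SE), and come out too small for genes of low level. Levels are means ± SD of 3 libraries.

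**Figure D2:**
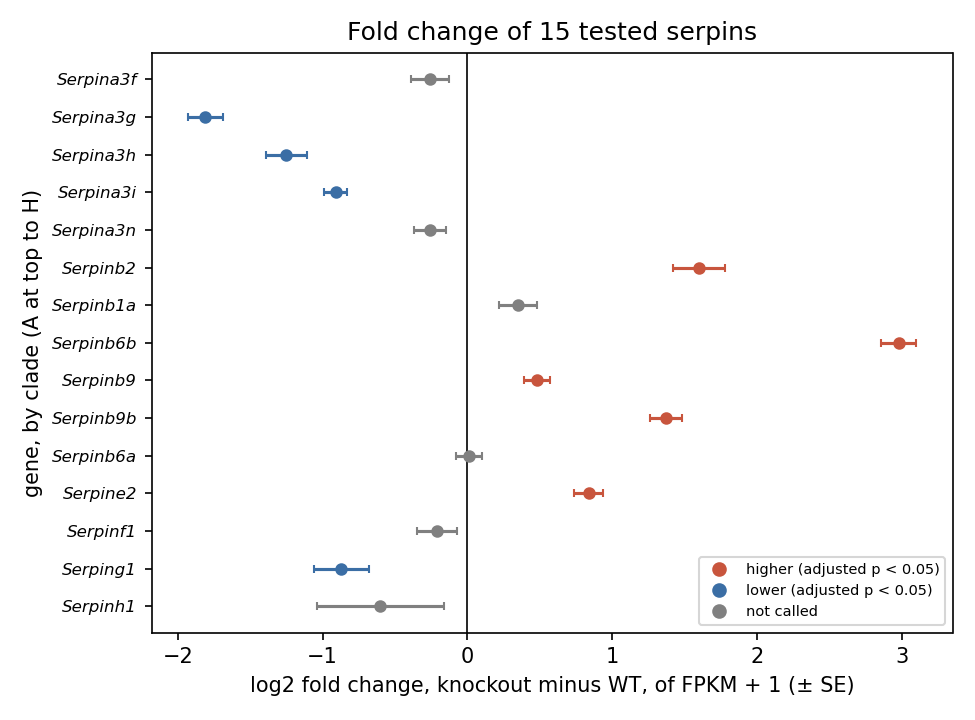
Log2 fold change (knockout minus WT, of FPKM + 1) of 15 tested serpins, ordered by clade from A at the top to H, with bars for the SE. Called genes of clade A and Serping1 lie below 0, between -1.81 and -0.87, and those of clade B and Serpine2 above 0, between 0.48 and 2.98.

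Clade A was represented by its Serpina3 genes alone, the murine counterparts of the single human alpha-1-antichymotrypsin gene. Serpina3g, also known as Spi2A, acts in the cytosol on cysteine cathepsins and is a known target of interferon signalling and of NF-kB in leukocytes. It had 41.81, 38.24 and 36.86 FPKM in WT replicates 1, 2 and 3, and 9.26, 9.60 and 12.67 in knockout replicates 1, 2 and 3. All 3 knockout values lay far below all WT values. The means were 39.0 ± 2.55 and 10.5 ± 1.88, a 3.71-fold lower level (log2 fold change -1.81 ± 0.12 SE, adjusted p = 0.00016, limma). Serpina3g accounted for most of the clade A sum, which was 47.3 to 53.9 FPKM in WT and 14.2 to 18.4 in knockout libraries.

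Serpina3h and Serpina3i, the next genes after Serpina3g, were low and fell as well. Serpina3h, annotated in the table as a processed transcript and transcribed pseudogene, had 3.94, 2.77 and 2.93 FPKM in WT and 0.96, 0.60 and 0.72 in knockout libraries, without overlap. It was 4.23-fold lower on mean FPKM, with a log2 fold change of -1.25 ± 0.14 (adjusted p = 0.00109, limma). Serpina3i had 3.92, 3.44 and 3.78 FPKM in WT and 1.44, 1.56 and 1.51 in knockout libraries, again without overlap. It was 2.47-fold lower (-0.91 ± 0.08, adjusted p = 0.000405, limma). Serpina3f and Serpina3n were not called. Serpina3f, whose product is an extracellular inhibitor of trypsin-like proteases, stood at 2.25 ± 0.277 and 1.72 ± 0.386 FPKM with overlapping libraries (-0.26 ± 0.13, adjusted p = 0.218). Serpina3n, an acute-phase inhibitor of granzyme B and leukocyte elastase, stood at 1.48, 1.75 and 1.46 FPKM in WT and 0.89, 1.26 and 1.31 in knockout libraries, which did not overlap but missed the threshold (-0.26 ± 0.11, adjusted p = 0.17). Serpina3c reached at most 0.18 FPKM, and the other 5 Serpina3 genes (a, b, j, k and m) were at 0 in every library.

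These genes share sequence, which bears on how reads were assigned among them. Over the transcripts of GENCODE M21, 7.7% of the distinct 75-base stretches of Serpina3g, 11% of those of Serpina3h, 6.6% of Serpina3i, 5.3% of Serpina3f and 1.5% of Serpina3n also occurred in transcripts of another gene. No stretch of 150 bases, the read length, was shared for any of these 5 genes. The sources used here do not give how reads with several matches were assigned, and the levels of Serpina3h and Serpina3i beside the more abundant Serpina3g are uncertain to an extent that was not measured.

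Upstream sequences are shown for 2 of the 3 Serpina3 genes that fell, Serpina3g and Serpina3i, and for the 2 tested genes that were not called. Serpina3h had no entry. They are the 250 bases before the RefSeq transcript start (GRCm38.p6, plus strand), at chr12:104214294-104214543 for Serpina3f, chr12:104235897-104236146 for Serpina3g, chr12:104262872-104263121 for Serpina3i and chr12:104406458-104406707 for Serpina3n. Serpina3f has a further RefSeq start, not shown. Capitals mark matches on either strand to the letters of the STAT-type GAS element (TTCNNNGAA), the interferon-stimulated response element, the NF-kB consensus, the AP-1 site (TGANTCA), the heat shock element and the TATA box (TATAAA).
Serpina3f: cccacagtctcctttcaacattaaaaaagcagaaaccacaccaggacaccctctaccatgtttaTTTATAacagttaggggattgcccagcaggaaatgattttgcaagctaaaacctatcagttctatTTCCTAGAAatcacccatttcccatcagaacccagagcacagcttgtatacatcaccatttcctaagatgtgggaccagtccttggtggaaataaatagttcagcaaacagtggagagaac
Serpina3g: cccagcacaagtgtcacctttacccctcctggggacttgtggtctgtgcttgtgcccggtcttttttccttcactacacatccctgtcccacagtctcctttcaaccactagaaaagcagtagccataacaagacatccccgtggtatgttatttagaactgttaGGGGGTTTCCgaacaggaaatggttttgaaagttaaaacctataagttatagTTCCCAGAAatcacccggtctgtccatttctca
Serpina3i: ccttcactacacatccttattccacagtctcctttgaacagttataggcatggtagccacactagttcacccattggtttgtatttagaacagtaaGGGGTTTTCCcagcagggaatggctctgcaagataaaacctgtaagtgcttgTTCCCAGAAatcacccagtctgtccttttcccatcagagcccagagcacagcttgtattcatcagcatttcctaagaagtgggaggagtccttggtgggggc
Serpina3n: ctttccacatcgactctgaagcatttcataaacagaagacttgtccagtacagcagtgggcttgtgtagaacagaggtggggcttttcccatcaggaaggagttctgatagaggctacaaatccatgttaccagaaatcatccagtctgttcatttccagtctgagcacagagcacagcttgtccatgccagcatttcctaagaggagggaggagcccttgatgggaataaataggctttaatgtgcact
A GAS match lay 121 to 113 bases before the start of Serpina3f, 33 to 25 bases before that of Serpina3g and 102 to 94 bases before that of Serpina3i. Of all 32851 promoter windows of this length 7.02% hold one. Serpina3g and Serpina3i, both lower in the knockout libraries, also had an NF-kB match, found in 3.9% of all windows, and in both the GAS match began 52 bases after the first base of the NF-kB match. Serpina3f, which was not called, had the GAS match without an NF-kB match, and its TATA box letters read on the minus strand. None of these letters was found in the window of Serpina3n. Outside the Serpina3 genes, the window of Serpinh1, which was not called, also held an NF-kB match. In pairwise alignments, identity was 82.6% over 161 aligned bases between Serpina3f and Serpina3g, 82.2% over 219 between Serpina3f and Serpina3i, and 80.4% over 179 between Serpina3g and Serpina3i. The rest of each pair of windows was aligned to gaps. These matches describe the sequence, and binding was not measured.

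In clade B, 4 of 6 tested genes were higher in the knockout libraries and 2 were not called. Serpinb6b, an intracellular inhibitor whose close relative Serpinb6a guards many cell types against leaked proteases, was nearly absent from WT libraries, with 0.02, 0.05 and 0.21 FPKM, and reached 8.56, 7.85 and 6.45 in knockout libraries. All knockout values lay far above all WT values (log2 fold change 2.98 ± 0.12, adjusted p = 2.4e-05, limma). The WT level rests on 4, 9 and 28 estimated counts, about 10 fragments in all, against about 868 in the knockout libraries. The ratio of fragments per depth was 85.5, with an exact (Clopper-Pearson) 95% interval of 46.3 to 179 that covers counting error only. WT replicate 3 gave most of the WT fragments. Without it the WT level rested on 3 fragments, and the ratio was 200.2 with an interval of 68.3 to 973. Serpinb6a stood at 44.19, 39.51 and 44.07 FPKM in WT and 44.04, 38.96 and 45.77 in knockout libraries. These values overlapped and gave a log2 fold change of 0.01 ± 0.09 (adjusted p = 0.956). In the knockout libraries Serpinb6a was thus still 4.96 to 7.10 times as abundant per length as Serpinb6b. No 75-base stretch of either transcript set was shared with another gene. Serpinb6a overlaps Nqo2, Ripk1 and 1110046J04Rik on the opposite strand, and whether counting used the strand is not given in the sources used here. The other 3 Serpinb6 genes (c, d and e) reached at most 0.04 FPKM.

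The upstream windows of this pair of relatives are shown since they had so different a level and difference between genotypes. They lie at chr13:32965011-32965260 (plus strand) for Serpinb6b and chr13:34002795-34003044 (minus strand, the farther upstream of its RefSeq starts) for Serpinb6a, with capitals as above.
Serpinb6b: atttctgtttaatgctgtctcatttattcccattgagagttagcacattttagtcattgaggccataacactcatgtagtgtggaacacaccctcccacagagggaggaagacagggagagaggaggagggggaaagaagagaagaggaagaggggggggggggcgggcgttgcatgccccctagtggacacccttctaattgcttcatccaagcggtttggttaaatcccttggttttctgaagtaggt
Serpinb6a: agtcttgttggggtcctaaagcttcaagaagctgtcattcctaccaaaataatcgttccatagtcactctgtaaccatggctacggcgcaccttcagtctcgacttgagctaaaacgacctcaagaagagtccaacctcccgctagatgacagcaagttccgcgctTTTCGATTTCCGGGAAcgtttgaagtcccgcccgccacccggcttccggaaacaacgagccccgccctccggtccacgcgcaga
The Serpinb6a window held overlapping matches to the interferon-stimulated response element, present in 2.98% of all windows, and to GAS. This window lies within Ripk1, which is on the opposite strand. The window of the other RefSeq start of Serpinb6a, not shown, held no match. The Serpinb6b window held none of the letters searched. Outside this pair, the window of Serpinb9, a gene called higher, also held an interferon-stimulated response element match, 46 to 37 bases before the start.

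The Serpinb9 genes encode inhibitors of granzyme B and related granule proteases, by which cytotoxic cells and antigen-presenting cells are protected from their own or released granzymes. Serpinb9 had 8.47, 6.80 and 7.42 FPKM in WT and 11.26, 10.51 and 11.05 in knockout libraries. The groups did not overlap, and the level was 1.45-fold higher (0.48 ± 0.09, adjusted p = 0.0103, limma). Serpinb9b had 0.66, 0.89 and 0.91 FPKM in WT and 4.14, 3.73 and 3.25 in knockout libraries. It was 4.52-fold higher on mean FPKM (1.37 ± 0.11, adjusted p = 0.000276, limma). The other 6 Serpinb9 genes (c to h) reached at most 0.12 FPKM, the value of Serpinb9e in knockout replicate 1. Serpinb1a, an inhibitor of neutrophil elastase, cathepsin G and related proteases, had 4.87, 3.33 and 4.52 FPKM in WT and 5.52, 5.37 and 6.04 in knockout libraries. These values did not overlap, but the gene was not called (0.35 ± 0.13, adjusted p = 0.11). Serpinb1b lay below the filter, at 0.21, 0.36 and 0.03 FPKM in WT and 0.58, 0.42 and 0.53 in knockout libraries.

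Serpinb2, plasminogen activator inhibitor type 2, is an inducible product of activated macrophages and other cells that is mostly kept inside the cell. It had 8.62, 6.75 and 7.61 FPKM in WT and 29.38, 28.67 and 18.96 in knockout libraries. Knockout replicate 3 was lower than the other knockout libraries but still above every WT library. The level was 3.35-fold higher (7.66 ± 0.936 to 25.7 ± 5.82, log2 fold change 1.60 ± 0.18, adjusted p = 0.0012, limma). Serpinb2 overlaps Serpinb10, which lies on the same strand and was listed at 0 in all libraries. Of the 75-base stretches of Serpinb2, 9.0% are shared with that gene, as are 5.5% of those of 150 bases, the read length. How reads from these stretches were assigned is not given in the sources used here. The summed FPKM of clade B was 58.3 to 67.7 in WT and 92.8 to 104 in knockout libraries. Macrophage markers, given above, were also higher in the knockout libraries. Serpinb8, a furin inhibitor below the filter, lay at 0.50, 0.45 and 0.55 FPKM in WT and 0.69, 0.70 and 0.60 in knockout libraries.

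The upstream window of Serpinb2 (chr1:107511173-107511422, plus strand, the farther upstream of its RefSeq starts) is shown because it carries a core promoter element at the usual place.
Serpinb2: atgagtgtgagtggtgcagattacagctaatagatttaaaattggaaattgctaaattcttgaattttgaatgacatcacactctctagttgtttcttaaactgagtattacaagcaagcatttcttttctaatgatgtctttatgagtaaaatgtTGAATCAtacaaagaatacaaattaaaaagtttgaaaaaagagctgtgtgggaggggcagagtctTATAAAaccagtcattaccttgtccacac
A TATA box match lay 29 to 24 bases before the start, as in 12.4% of all windows at any place, and an AP-1 match 94 to 88 bases before it, as in 6.75% of all windows. Counted from its other RefSeq start, not shown, the TATA box letters lay at -116 to -111, away from the usual place. The window of that start also held a GAS match.

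Serpine2 of clade E, protease nexin 1, inhibits thrombin, urokinase and plasmin at the cell surface and in matrix. It had 3.39, 2.89 and 2.45 FPKM in WT and 5.81, 5.81 and 6.24 in knockout libraries, without overlap, and was 2.05-fold higher (0.84 ± 0.10, adjusted p = 0.00192, limma). Serpine3 reached at most 0.03 FPKM.

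Both plasminogen activators were lower in the knockout libraries, in which Serpine2 was higher. Of 19 listed genes of plasminogen activation and thrombin, 12 were tested, 3 were higher and 3 lower, with a median log2 fold change of 0.02. Plat, tissue plasminogen activator, fell from 13.3 ± 0.667 to 5.04 ± 0.433 FPKM (-1.25 ± 0.08, adjusted p = 0.000131, limma). Tfpi, the tissue factor pathway inhibitor, which is of another inhibitor family, fell from 9.57 ± 1.81 to 1.20 ± 0.221 (-2.26 ± 0.14, adjusted p = 0.000117). Plaur, the urokinase receptor, rose from 11.8 ± 1.13 to 34.4 ± 1.67 (1.47 ± 0.08, adjusted p = 7.99e-05). The remaining called genes are given after inspection of their values. Plau, urokinase itself, fell from 49.2 ± 1.51 to 37.3 ± 2.05 (adjusted p = 0.0074), and the endothelial protein C receptor Procr and thrombomodulin (Thbd) rose from 12.1 to 23.4 and from 14.7 to 17.8. Plg, which encodes plasminogen, was listed at 0 in every library.

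Clades F, G and H each had 1 tested gene. Serpinf1, pigment epithelium-derived factor, is a non-inhibitory serpin that restrains vessel growth and is secreted by stromal cells. It had 514.86, 442.36 and 500.49 FPKM in WT and 446.72, 350.27 and 473.51 in knockout libraries, which overlapped (-0.21 ± 0.14, adjusted p = 0.367). Its neighbour Serpinf2, antiplasmin, reached at most 0.14 FPKM. Serping1, the inhibitor of the complement proteases C1r and C1s and of plasma kallikrein, had 2.54, 2.45 and 2.53 FPKM in WT and 1.12, 0.41 and 1.38 in knockout libraries. The knockout libraries were all lower and differed 3.37-fold among themselves, with replicate 2 the lowest (-0.87 ± 0.19, adjusted p = 0.0226, limma). This call did not hold in edgeR (adjusted p = 0.0568), without the expression filter (0.0566), or without WT replicate 1, 2 or 3 (0.074, 0.0655 and 0.0724) or knockout replicate 1 (0.0515). Of 16 listed complement and contact system genes, 10 were tested, 3 were higher and 4 lower (median log2 fold change -0.22). The protease C2 fell from 5.70 ± 0.286 to 0.487 ± 0.166 FPKM and its relative Cfb from 60.0 ± 3.45 to 17.8 ± 1.38. C2 passed the expression filter through the WT libraries only, so that it had to differ in level. C1s1, a direct target of Serping1, had 37.79, 76.02 and 71.62 FPKM in WT and 34.22, 15.16 and 16.09 in knockout libraries (adjusted p = 0.0366, limma), with WT replicate 1 close to knockout replicate 1. F11 and F12 of the contact system were at 0. The 3 higher genes were C1qa, C1qb and C1qc, which encode the subunits of C1q, a macrophage product, and are also in the macrophage list (named after inspection of their values).

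Serpinh1, also known as Hsp47, binds procollagen in the endoplasmic reticulum and helps its triple helix to fold. It had 1100.92, 1070.74 and 472.90 FPKM in WT and 388.11, 920.88 and 448.68 in knockout libraries. WT replicates 1 and 2 and knockout replicate 2 were high, the other 3 libraries low, and the genotypes overlapped (-0.60 ± 0.44, adjusted p = 0.414). The highest library exceeded the lowest of its genotype 2.33-fold in WT and 2.37-fold in knockout cultures. Among 4036 genes with a mean of at least 10 FPKM in both genotypes the median of this ratio was 1.12 in WT and 1.19 in knockout, and 49 genes reached 2 in both. With this spread no difference of Serpinh1 between genotypes was called, which does not show that the levels are equal. Its collagen folding partners did not vary in this way. Of 23 tested genes of that list, only P3h2, with 0.35 to 1.79 FPKM, reached a ratio of 2 in both genotypes, and the medians were 1.07 and 1.14. Of these 23 genes 3 were higher and 9 lower in the knockout cultures (median log2 fold change -0.12). Col3a1, a fibrillar collagen, fell from 314 ± 20.2 to 180 ± 8.23 FPKM (-0.80 ± 0.08), the prolyl hydroxylase family member P3h3 from 44.7 ± 1.41 to 27.3 ± 3.94 (-0.70 ± 0.11), and the lysyl hydroxylase Plod2 rose from 20.0 ± 1.3 to 35.5 ± 3.88 (0.79 ± 0.10), with adjusted p of 0.000929, 0.00475 and 0.00185 (limma).

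**Figure D3:**
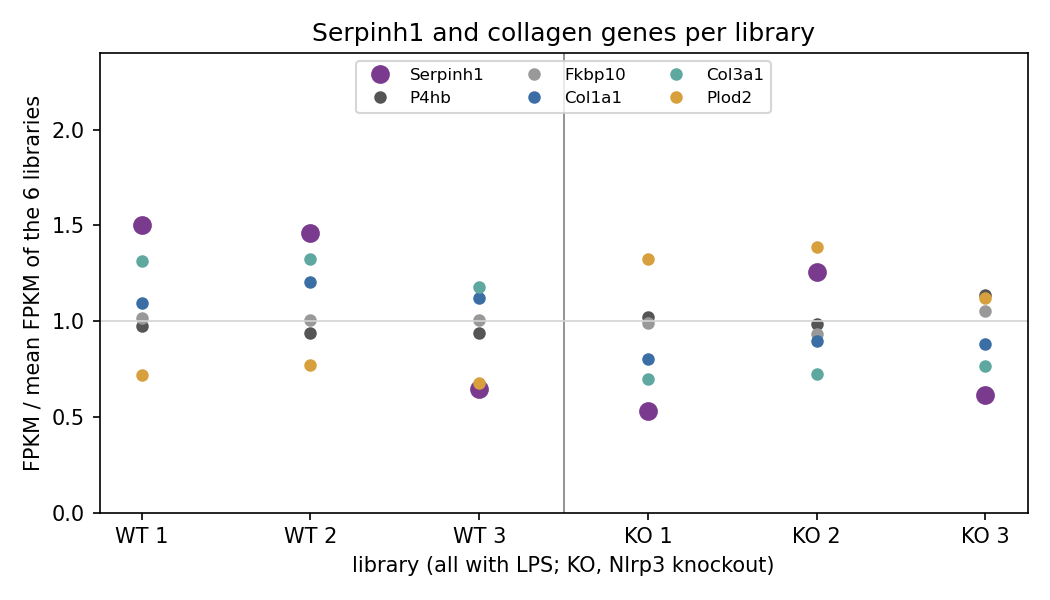
FPKM of Serpinh1 and of 5 genes of collagen synthesis in each library, divided by the gene's mean over the 6 libraries (the values 1, 2 and 3 are the replicates of each genotype, KO for knockout). Serpinh1 is above its mean in WT 1, WT 2 and KO 2 and below it in the other 3 libraries, while Col1a1, Col3a1 and Plod2 separate by genotype and P4hb and Fkbp10 stay near 1.

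By position, 56 of the 63 genes lay in 5 runs with at most 1 Mb between neighbours (GRCm38, coordinates as deposited). The chromosome 12 cluster spans positions 103614786 to 104414329 (0.8 Mb) and holds 24 of the 25 clade A genes. Its 5 tested members lie at the end, from Serpina3f (start 104214544) through Serpina3g (104236245), Serpina3h (104247905) and Serpina3i (104263122) to Serpina3n (104406729), all on the plus strand. The 3 called genes are direct neighbours, and on mean FPKM they were 3.71-fold, 4.23-fold and 2.47-fold lower from Serpina3g to Serpina3i. The chromosome 13 cluster spans positions 32842092 to 34002794 (1.161 Mb) and holds 16 clade B genes, of which 5 were tested and 3 called higher. Serpinb6b (start 32965209), Serpinb9 (33003250) and Serpinb9b (33027416) are adjacent, while Serpinb1a (32842092) and Serpinb6a (end 34002794) at the outer edges were not called. In the chromosome 1 cluster (106861173 to 107610484), with 12 clade B genes, Serpinb2 (start 107511423) alone passed the filter. Its other 11 genes, among them the epithelial serpins Serpinb5 and Serpinb7, reached at most 0.70 FPKM, the value of Serpinb8. Serpine2 lies outside that cluster on the same chromosome (79794197 to 79858696).

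Genes other than serpins in and within 0.5 Mb of these clusters did not move as a block. Beside the chromosome 12 cluster 8 were tested, 2 higher and 1 lower (median log2 fold change 0.16). Asb2, a ubiquitin ligase subunit, rose from 0.0133 to 1.3 FPKM and the homeobox gene Gsc from 0.103 to 2.01, while Ifi27l2a, an interferon-induced gene, fell from 50.9 ± 8.16 to 19.1 ± 3.85 (-1.37, adjusted p = 0.00222, limma). At the chromosome 13 cluster 1 of 9 was higher and 0 lower (median 0.02), and that 1 was the long non-coding RNA Gm6093 inside the cluster, which rose from 0.273 ± 0.130 to 5.42 ± 1.36 FPKM (2.32, adjusted p = 0.000262). None of 3 was called at the chromosome 1 cluster and none of 2 at the chromosome 3 pair, Serpini1 and Serpini2. Around the chromosome 11 pair, Serpinf1 and Serpinf2, 1 of 20 was higher (Scarf1, 0.630 to 1.64 FPKM) and 4 were lower, Hic1 (18.4 to 4.10), Rtn4rl1 (1.38 to 0.223), Smg6 (6.57 to 4.21) and Tlcd2 (3.36 to 1.53). Asb2, Gsc, Gm6093 and Scarf1 passed the expression filter through the knockout libraries only, and Rtn4rl1 through the WT libraries only. These genes therefore had to differ in level. Of all 12136 tested genes, 10.4% were called higher and 9.2% lower.

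**Figure D4:**
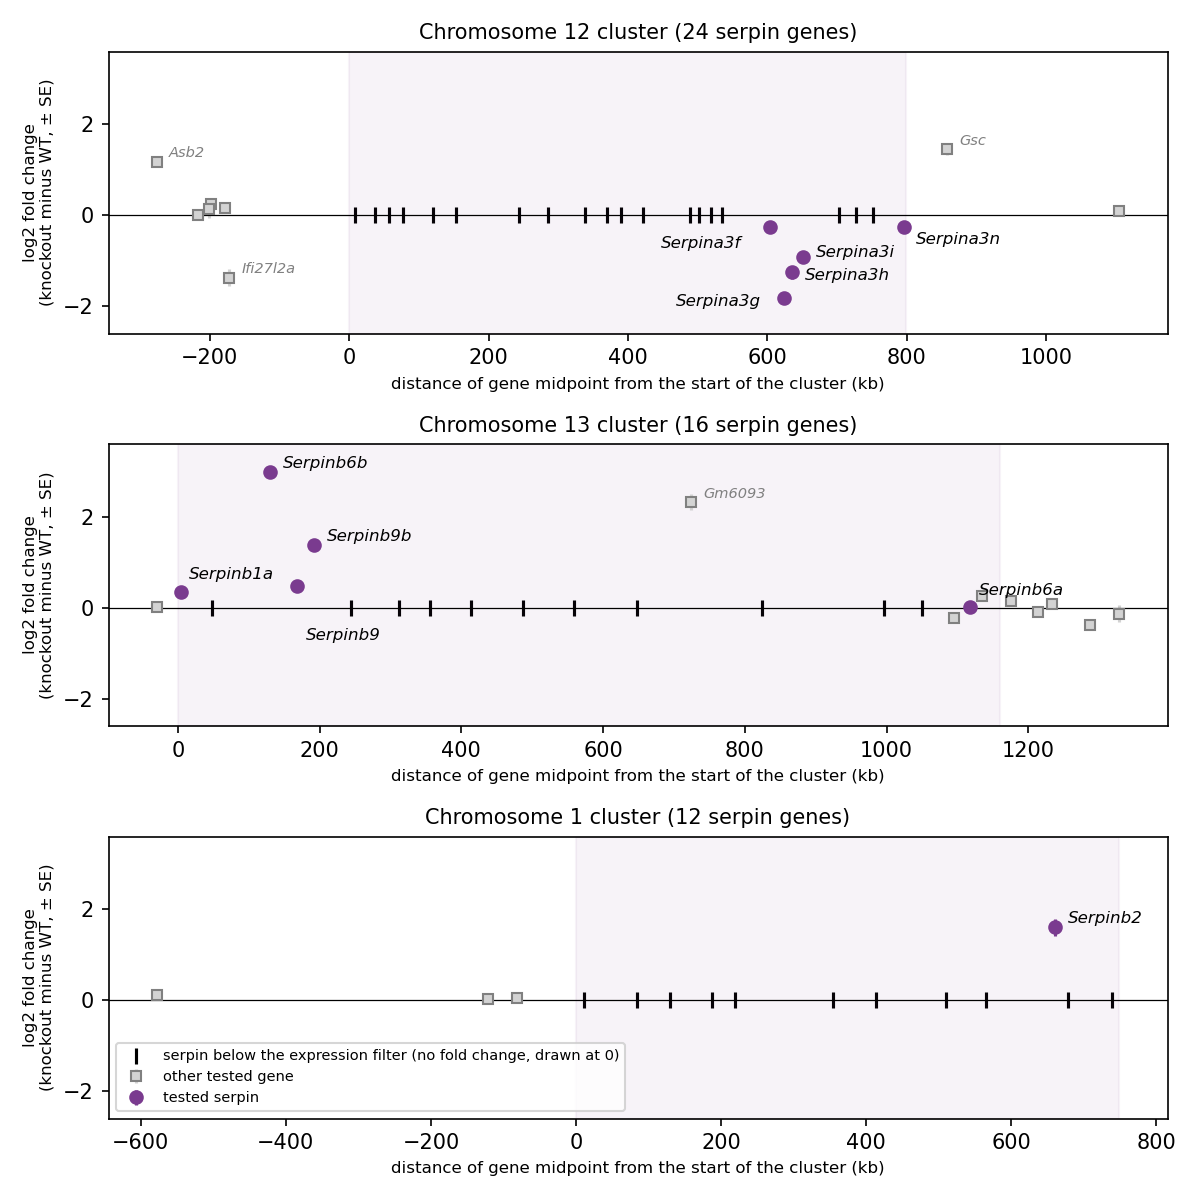
Log2 fold change (knockout minus WT, ± SE) of tested serpins (purple circles) and other tested genes (grey squares) against distance in kb from the start of the 3 large clusters, which are shaded. Short black bars mark serpins below the expression filter. In the chromosome 12 cluster the tested serpins lie at or below -0.26, in the chromosome 13 cluster 3 adjacent serpins are called above 0, and most other genes nearby lie near 0.

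The proteases that clade B serpins meet in the cytosol were compared as well. Of 25 listed granule and lysosomal proteases and caspases 14 were tested, of which 6 were higher and 0 lower (median log2 fold change 0.32). Casp1, the inflammasome protease, rose from 0.593 ± 0.136 to 4.16 ± 0.320 FPKM (1.70 ± 0.10), the granzyme gene Gzme from 2.23 ± 0.371 to 6.5 ± 0.693 (1.22 ± 0.12) and the lysosomal cathepsin gene Ctss, which is also in the macrophage list, from 22.6 ± 1.45 to 45.5 ± 2.24 (0.98 ± 0.07), with adjusted p of 8.41e-05, 0.000633 and 0.000247 (limma). Casp1 and Gzmd passed the expression filter through the knockout libraries only, so that they had to differ in level. Gzmd is named after inspection of its values. Gzmb, the main target of Serpinb9, reached at most 0.15 FPKM and was not tested. Elane and Ctsg, neutrophil targets of Serpinb1a, were at 0 in every library. Inhibitors of other families moved in both directions, with 3 higher and 3 lower of 8 tested (median log2 fold change -0.14). Among the lower genes Cst6, named after inspection of its values, passed the expression filter through the WT libraries only. Timp3 rose from 15.6 to 132 FPKM and Timp1 from 1230 to 1927, and the secreted elastase inhibitor Slpi fell from 70.7 to 20.6 (adjusted p = 2.98e-06, 0.0157 and 0.000146, limma).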

How the data were processed

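Polyadenylated RNA of 6 cultures was sequenced as paired reads of 150 bases, per the labels' protocols. The tools named in the submitters' processing notes are StringTie 1.3.4d, HISAT2 2.0.4 and cutadapt 1.9, and the build is GRCm38. How counts were made, the annotation release, the strand setting and any filter: not given in the sources used here. The authors deposited FPKM values to 2 decimals and estimated counts per gene as whole numbers, per the file headers. Among counts up to 16, 43.6% to 45.2% were multiples of 4, from which 4 counts per fragment were inferred. Totals were 53157580 to 66298470 estimated counts.

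Genes reaching 1 FPKM in 3 or more libraries entered a limma fit of log2(FPKM + 1) (R 4.3.3, limma 3.58.1, intensity trend, group as only term, two-sided, Benjamini-Hochberg over all tested genes, threshold 0.05). An exact permutation test of 3 against 3 libraries cannot go below 0.1, so it calls no single gene here. Alternatives were another pseudocount (0.1), filters, quantile normalization, edgeR 4.0.16 and DESeq2 1.42.0 on the estimated counts, a replicate block and leaving out each library. The scripts were tested on simulated data.

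The members and gene lists were chosen with earlier results of these data known. Of the 64 genes that match the family rule, 1 is not reported here and enters no count, sum or median of the family. Every other tested member is named, members below the filter are named where a library reached 0.1 FPKM or to describe a subfamily, and of each pathway list the 3 called genes with the largest change are named, others being marked as given after inspection of their values. RefSeq (GRCm38.p6) promoter sequences matched 54 of the 63 members. Of the members, 56 have the same coordinates in GENCODE M21. The 5 rows with a Serpin name and a pseudogene suffix fall outside the family rule and were not used.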

Additional observations from a re-analysis of the deposited data

How the results depend on the processing

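Of the 15 tested serpins, 13 kept their direction and their side of the threshold in each of 13 alternatives. Serping1 (main log2 fold change -0.87) lost its call without the expression filter (-0.87), in edgeR (-1.37) and without each WT library or knockout replicate 1, with values from -1.02 to -0.64 when 1 library was left out, so that the number of lower genes outside clades A and B went from 1 to 0 in those settings (0 to 1 with 1 library left out). Serpinb6a, near 0 throughout, changed sign in edgeR (-0.01), in DESeq2 (0.00) and with 1 library left out (-0.04 to 0.08). The tested serpins had a median log2 fold change of -0.21, which moved between -0.29 and -0.08 with 1 library left out. In comparisons added after seeing the data, leaving out the 3 serpins that passed the filter through 1 genotype gave 3 higher serpins in place of 5, 2 higher in clade B in place of 4, and clade medians of -0.59 (A) and 0.42 (B), and the Serpinb6b fragment ratio lay between 63.64 and 200.2 with 1 library left out. Over all genes, 1117 were lower in the main test, 1680 in DESeq2 and 721 to 1314 with 1 library left out. No member below the expression filter was called under any alternative. In their titles the replicates carry day numbers 1, 2 and 3, whereas another label gives day 1 for all. Since these labels disagree, the numbers were used only as a block in an alternative. The deviations of same-numbered libraries from their group means correlated at 0.02, 0.168 and 0.096. Without the values for libraries of different numbers, these do not decide whether the numbers mark pairs. With the replicate block 5 serpins were higher and 4 lower, as without it, and 1106 and 980 of all tested genes were. The causes of these changes were not tested. Depth limits Serpinb6b in WT, at about 10 fragments, and every gene listed at 0.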
